A study of Pinus armandii with 6 samples.

Results

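The unigenes described here are 92 assembled transcripts of Pinus armandii that the deposited annotation places in protein processing in the endoplasmic reticulum (ER) or in protein export. The rule reads the annotation and no measured value, but it was drawn up with earlier results of these data known. A member carries the KEGG pathway ko04141 or ko03060 and not ko04120 (ubiquitin-mediated proteolysis), has a best database hit in Picea, Pinus or Taxus, and has a symbol that does not begin like that of a heat shock or J protein. These 92 were taken from 432 unigenes of the same pathways and from 65117 unigenes in all. Of them, 16 carry the protein export pathway alone and 8 carry both pathways. The best hit lies in Picea for 65 members, in Taxus for 24 and in Pinus for 3.

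The RNA came from seed kernels of the Chinese white pine, Pinus armandii, and gave 3 libraries of a late September harvest and 3 of a late August harvest. No genotype, tree or treatment is given. Each title marks its library as a biological replicate, without tying it to a tree or cone. The spread behind the p-values is that of these 6 libraries, and whether it covers differences between trees or cones cannot be told. The comparison asks how kernel transcripts differ between the later and the earlier harvest.

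Secretory and storage proteins enter the ER through the SEC61 channel, lose their signal peptide, receive N-linked glycans and fold with the help of lectin chaperones and disulfide enzymes. Folded cargo leaves in COPII-coated vesicles, and proteins that fail to fold are pulled back to the cytosol and degraded. In developing seeds this route carries storage proteins toward the vacuole.

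Total counts per library ran from 12849649 to 17379628. Unigenes that entered the tests held 99.4% to 99.7% of the counts in 5 libraries and 98.6% in the second August library. Seed storage transcripts were present in every library. Summed vicilin was 595.4 to 625.1 CPM in September and 342.6 to 349.3 CPM in August, and summed legumin was 329.5 to 432.6 CPM in September and 195.4 to 206.7 CPM in August. Summed 2S albumin was 503.7 to 511.1 CPM in September and 399.1 to 533.4 CPM in August. Oil body proteins found by the name oleosin or caleosin summed to 1424 to 1594 CPM in September and 2648 to 2922 CPM in August. CPM means counts scaled to the size of a library. For the storage and oil body sums above, that size is all counts of the library. In the results below, it is the counts in tested unigenes, scaled by the library's size factor. The part of these storage transcripts in the results below was not tested, and in whole kernels fewer cells of a type and less RNA per cell cannot be told apart.

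More members were lower than higher in September, by modest amounts, while the main lectin chaperone and a disulfide isomerase were higher. With enough counts for a test in 88 members, 17 were higher, 46 were lower and 25 did not pass at an adjusted p of 0.05 (edgeR, quasi-likelihood test, Benjamini-Hochberg over all tested unigenes). Over all 23216 tested unigenes, 35.4% were higher and 32.5% lower, 67.8% in either direction. The members' share was 19.3% higher and 52.3% lower. Their median log2 fold change, September over August, was -0.25, beside 0.03 over all tested unigenes.

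The changes of the members were small beside those of the whole table. Their median absolute log2 fold change was 0.40, against 0.69 over all tested unigenes and 0.58 over those with a best hit in the same 3 genera. Small changes were not particular to the members. Among the other unigenes of these pathways, the value was 0.39 for best hits outside the 3 genera and 0.46 for those in ko04120. It was 1.29 for those with a chaperone symbol. Whether the size goes with the number of reads was not tested. At least 2-fold changes were passed by 5 members upward and 6 downward, where 24.3% of all tested unigenes rose and 12.4% fell that far. In 22 members all September libraries lay above all August libraries, and in 50 all lay below. Over all tested unigenes the months did not overlap in 72.9%, with 37.8% higher and 35.0% lower.

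Members also drew more reads than most unigenes, with a median of 64.0 CPM over the 6 libraries against 9.45 CPM over all tested unigenes. CPM is not scaled to length, so these medians do not compare levels per length. Without the second August library, 16 members were higher and 42 lower of 90 tested, where 33.5% of all tested unigenes were higher and 29.2% lower. Unigenes with a best hit in the same 3 conifer genera, whatever their pathway, had 4362 that rose and 4845 that fell of 13756 tested, at a median log2 fold change of -0.04.

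**Figure D1:**
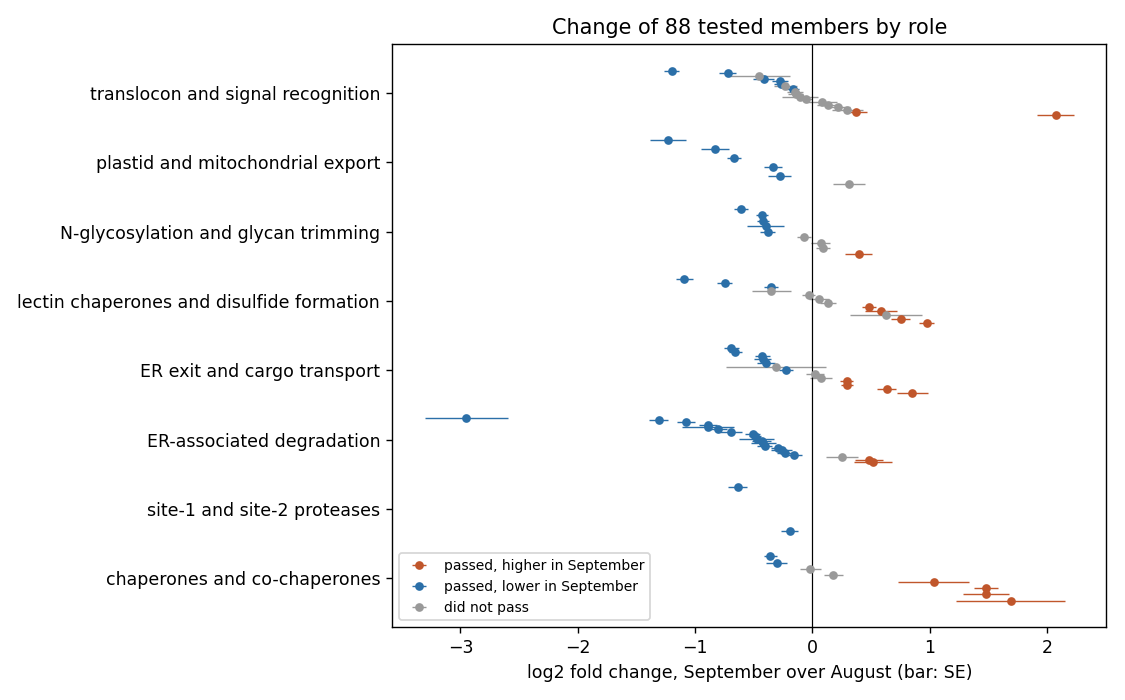
Log2 fold change, September over August, of the 88 tested members by role, with the standard error as a bar and the call as colour. The 20 degradation members lie mostly left of 0 (17 lower, 2 higher), and the lectin chaperones and disulfide enzymes lie on both sides (4 higher, 3 lower).

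The role of a member was read from its KEGG orthology number. Levels of different unigenes are compared only as FPKM, which is scaled to length, and changes are given on the CPM counts.

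The lectin chaperones and disulfide enzymes had 4 of 12 tested unigenes higher, 3 lower and 5 that did not pass, at a median log2 fold change of 0.10. The share higher, 33.3%, was close to the 35.4% over all tested unigenes. The share lower was under the 32.5% over all tested unigenes. The summed level of the lectin chaperones and disulfide enzymes was 2781, 2832 and 2595 CPM in September and 2079, 1924 and 2149 CPM in August. Calnexin was the largest item of that sum in each month. CNX1 (Unigene0001879), a membrane lectin that holds newly glycosylated proteins while they fold, had 1506, 1560 and 1415 CPM in September and 895, 784 and 978 CPM in August. It was 1.69-fold higher (log2 fold change 0.75, SE 0.0809, adjusted p = 2.27e-05), and the months did not overlap. Per length it was the most abundant member in September, at 374 ± 20.4 FPKM in September and 223 ± 25.5 FPKM in August (SD, n = 3 each).

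The isomerase PDIL2-3 (Unigene0069174), which makes and rearranges disulfide bonds, had 319.9, 317 and 291 CPM in September and 162, 146 and 163 CPM in August. It was 1.97-fold higher (log2 fold change 0.97, SE 0.0655, adjusted p = 1.01e-06). Every September library was above every August library. A second isomerase with the same KEGG number, PDIL2-1 (Unigene0023798), moved the other way, with 105, 103 and 95.5 CPM in September and 132, 129 and 128 CPM in August (log2 fold change -0.36, SE 0.0597, adjusted p = 0.000431). The ratio of PDIL2-3 to PDIL2-1 in FPKM was 2.99, 3.04 and 2.99 in September and 1.21, 1.12 and 1.26 in August.

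The luminal lectin calreticulin was higher in 1 of 2 tested unigenes. CRT1 (Unigene0015674) had 136, 144 and 137 CPM in September and 100.2, 103 and 93.8 CPM in August (log2 fold change 0.49, SE 0.0609, adjusted p = 6.47e-05), with no overlap. CRT3 (Unigene0018817) had a log2 fold change of 0.06 and did not pass (SE 0.0878, adjusted p = 0.582). A further CRT1 unigene (Unigene0015673) was the most abundant of the 4 members with too few counts to be tested, at 0.477, 1.21 and 1.26 CPM in September and 0.374, 0.0741 and 0.127 CPM in August.

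The oxidase that supplies disulfide bonds was lower. AERO1 (Unigene0020074), which reoxidises the isomerases, had 58.4, 65.5 and 59.8 CPM in September and 123, 130.0 and 138 CPM in August, and fell by 1.09 on the log2 scale (SE 0.0709, adjusted p = 8.19e-07). The months were far apart. AERO2 (Unigene0070018) was at 2.79 ± 0.351 FPKM in September and 3.58 ± 0.298 FPKM in August (SD, n = 3 each) and did not pass (log2 fold change -0.35, SE 0.163, adjusted p = 0.082).

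Of the 4 isomerases of the A1 class, PDIL1-5 (Unigene0070256) was higher and PDIL5-2 (Unigene0073974) lower. PDIL1-5 had 20.6, 16.2 and 16.1 CPM in September and 11.2, 11.2 and 12.8 CPM in August (log2 fold change 0.59, SE 0.138, adjusted p = 0.00369). PDIL5-2 had 48.1, 49.8 and 48.3 CPM in September and 81.2, 80.2 and 84 CPM in August, and fell by 0.75 (SE 0.0623, adjusted p = 4.22e-06). The most abundant of the class, PDI (Unigene0018990), was at 322, 304 and 291 CPM in September and 326, 309.8 and 301 CPM in August, and its months overlapped. PDIL1-4 (Unigene0070246) did not pass at a log2 fold change of 0.13, nor did a low calnexin unigene, CNX1 (Unigene0051301), at 0.63 (SE 0.31, adjusted p = 0.0959).

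**Figure D2:**
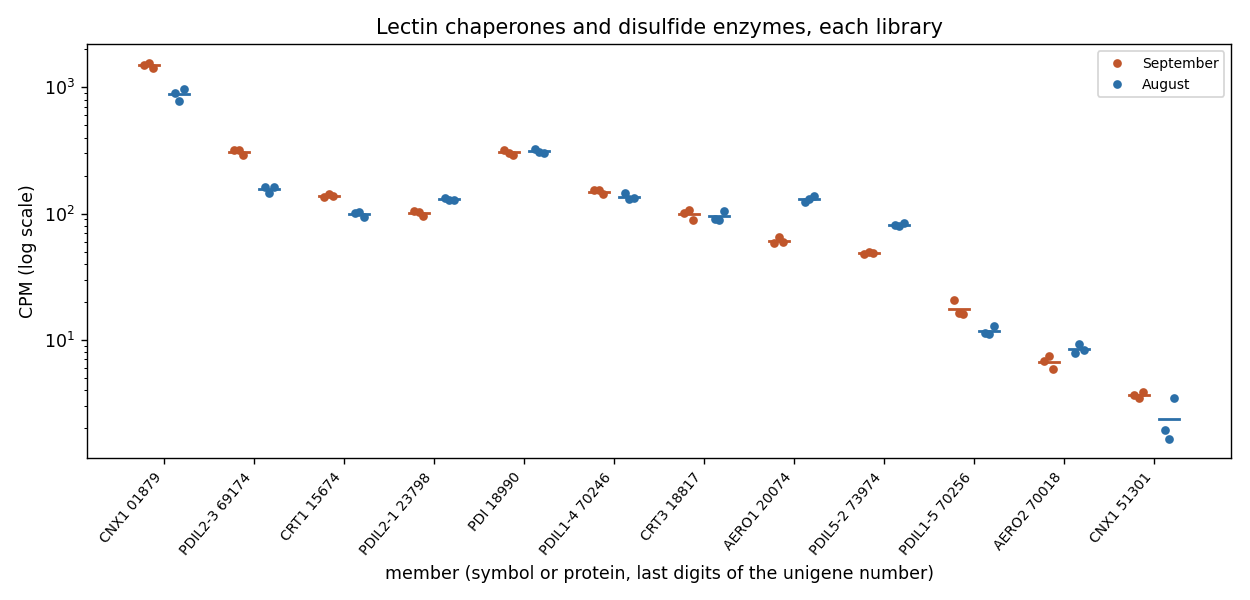
CPM on a log scale of the 12 tested lectin chaperones and disulfide enzymes, ordered by mean FPKM, with each library as a point and the mean of a month as a line. CNX1 and PDIL2-3 are higher in all 3 September libraries, and AERO1 and PDIL5-2 are lower in all 3.

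At the entry to the ER, the translocon and signal recognition members had 2 of 18 tested unigenes higher, 6 lower and 10 that did not pass, at a median log2 fold change of -0.14. The share lower, 33.3%, was close to the 32.5% over all tested unigenes, and the share higher was 11.1%, beside 35.4%. The largest fall was in SEC62 (Unigene0049724), a membrane partner of the channel. It had 83.3, 91 and 96.1 CPM in September and 205, 212 and 204 CPM in August, and fell by 1.20 on the log2 scale (SE 0.0649, adjusted p = 2.6e-07). No September library came near an August one.

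The pore itself is SEC61 alpha. The most abundant unigene, sec61a (Unigene0039173), had 394, 376 and 365 CPM in September and 389.8, 397 and 391 CPM in August, and did not pass (log2 fold change -0.05, SE 0.0526, adjusted p = 0.394). The next, Unigene0039174, had 215, 219 and 223 CPM in September and 253, 253 and 232 CPM in August (log2 fold change -0.17, SE 0.0567, adjusted p = 0.0231). That call was lost when any 1 of the 3 September libraries was left out, with adjusted p of 0.0544 to 0.0788. A further unigene with this KEGG number has the symbol SCY1 (Unigene0053866), which in Arabidopsis names the plastid channel protein. It was at 31.1, 30.9 and 30.7 CPM in September and 23.1, 21.9 and 26.7 CPM in August (log2 fold change 0.37, SE 0.0981, adjusted p = 0.00715). SCY1 is counted above among the higher unigenes of the ER entry and below in the SEC61 alpha sum. Where its protein acts was not tested.

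SEC61 beta, a small subunit of the channel, was divided between 2 unigenes that differed in their change. Unigene0070275 had 31.2, 31 and 30.4 CPM in September and 9.05, 7.26 and 5.65 CPM in August, 4.21-fold higher (log2 fold change 2.07, SE 0.155, adjusted p = 2.03e-06), the largest rise among members with a mean of 5 CPM or more. Unigene0026879 had 26.4, 25.4 and 30.8 CPM in September and 31.1, 33 and 32.6 CPM in August, and did not pass (log2 fold change -0.23, SE 0.0969, adjusted p = 0.057). Both unigenes share 1 symbol, At2g45070. Their FPKM ratio was 0.569, 0.586 and 0.474 in September and 0.140, 0.106 and 0.0834 in August. SEC61 gamma, the remaining subunit, did not pass in either unigene with the symbol Os02g0178400, at 0.08 in Unigene0073070 and -0.45 in Unigene0009951.

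Around the channel, the subunit beta of the translocon-associated protein complex (Unigene0024878) fell by 0.72 (SE 0.0751, adjusted p = 1.83e-05), with 53.9, 53.7 and 50.3 CPM in September and 91.2, 90.3 and 79.3 CPM in August. Both subunits of the receptor for the signal recognition particle were lower by a smaller amount. The alpha subunit srpra (Unigene0073578) had a log2 fold change of -0.27 (SE 0.0526, adjusted p = 0.00114), and the beta subunit (Unigene0055763) also -0.27 (SE 0.0684, adjusted p = 0.00499). The particle proteins SRP72 (Unigene0056251) and SRP19 (Unigene0045475) did not pass, with log2 fold changes of -0.14 and -0.11. Particle proteins that are no members were lower, SRP54 (Unigene0023394) at -0.42 (adjusted p = 0.000252) and SRP68 (Unigene0057756) at -0.44 (adjusted p = 0.000745).

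Signal peptidase cuts the signal peptide once the chain has entered. Its catalytic subunit Sec11c (Unigene0006255) was at 8.06 ± 0.334 FPKM in September and 6.58 ± 0.378 FPKM in August and did not pass (adjusted p = 0.067), while all unigenes of its KEGG number summed to a log2 fold change of 0.62 (adjusted p = 0.000176). Subunits 1 and 2, At2g22425 (Unigene0072592) and At2g39960 (Unigene0038550), did not pass either. Of the subunit 3 unigenes, all with the symbol At5g27430, Unigene0022965 was lower (log2 fold change -0.41, SE 0.0886, adjusted p = 0.00204), Unigene0022963 did not pass at 0.22, and Unigene0014052 was too low to test.

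**Figure D3:**
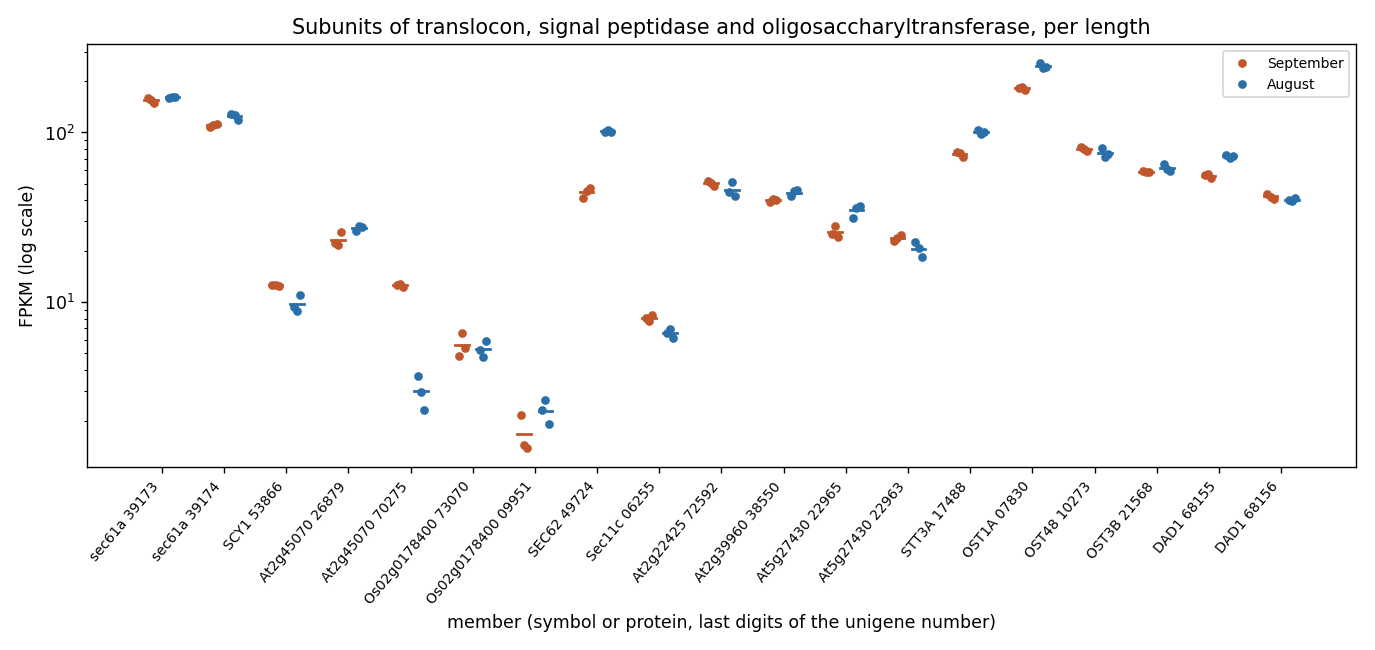
FPKM on a log scale of the tested subunits of the SEC61 channel, SEC62, signal peptidase and oligosaccharyltransferase, with each library as a point and the mean of a month as a line. SEC62 and the OST1A, STT3A and more abundant DAD1 subunits are lower in all September libraries, and 1 of the 2 SEC61 beta unigenes is higher in all of them.

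Glycan transfer and trimming had 1 of 9 members higher, 5 lower and 3 not passing, at a median log2 fold change of -0.38. The shares, 11.1% higher and 55.6% lower, stand beside 35.4% and 32.5% over all tested unigenes. Oligosaccharyltransferase moves the glycan onto the entering chain. Its subunit OST1A (Unigene0007830) had 453, 458 and 442 CPM in September and 632, 596 and 594 CPM in August, and fell by 0.43 (SE 0.0525, adjusted p = 5.44e-05). Its catalytic subunit STT3A (Unigene0017488) had 244, 237 and 229 CPM in September and 326, 308 and 317 CPM in August, and fell by 0.42 (SE 0.0537, adjusted p = 7.13e-05). Neither overlapped between months.

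Other subunits of the same enzyme did not all move with them. DAD1 (Unigene0068155) fell by 0.38 (SE 0.0636, adjusted p = 0.000433), and a second DAD1 unigene (Unigene0068156) did not pass at a log2 fold change of 0.07. OST48 (Unigene0010273) and OST3B (Unigene0021568) did not pass, at 0.09 and -0.07. Whether subunits differed from each other in their change was not tested.

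Trimming of the transferred glycan begins with glucosidase I and goes on with glucosidase II. Glucosidase I, GCS1 (Unigene0014700), had 17.1, 19.5 and 19 CPM in September and 14.8, 13 and 14.4 CPM in August (log2 fold change 0.40, SE 0.115, adjusted p = 0.0113), and without the second August library its adjusted p was 0.0518. The alpha subunit of glucosidase II, PSL5 (Unigene0069138), had 133, 142 and 134 CPM in September and 217, 213 and 194 CPM in August, and fell by 0.61 (SE 0.0618, adjusted p = 1.57e-05). The beta subunit OsI_01383 (Unigene0017741) was called lower at -0.40 (SE 0.155, adjusted p = 0.0416), and the call was lost without any 1 of 5 libraries, every one but August library 3 (adjusted p 0.055 to 0.123). All unigenes of that KEGG number summed to 0.13 (adjusted p = 0.0962).

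At ER exit, 4 of 13 members rose, 6 fell and 3 did not pass, at a median log2 fold change of -0.22. That is 30.8% higher and 46.2% lower, beside 35.4% and 32.5% over all tested unigenes. The summed level of the ER exit members overlapped between months, at 1357, 1293 and 1330 CPM in September and 1345, 1356 and 1336 CPM in August. SAR1 is the small GTPase that starts a COPII vesicle. One SAR1A unigene (Unigene0066278) had 103, 105 and 94.5 CPM in September and 65.8, 70.4 and 58.9 CPM in August (log2 fold change 0.63, SE 0.0789, adjusted p = 6.18e-05), and the other (Unigene0050085) had 107, 116 and 108 CPM in September and 102, 122 and 104 CPM in August and did not pass.

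The coat itself was mixed. The cargo-binding subunit SEC24, At3g07100 (Unigene0044589), had 315, 295 and 312 CPM in September and 249, 247 and 257 CPM in August, with a log2 fold change of 0.29 (SE 0.0533, adjusted p = 0.000728). The outer coat protein SEC31B (Unigene0038675) had a log2 fold change of 0.30 (SE 0.0535, adjusted p = 0.000687). The inner coat protein SEC23 (Unigene0072785) moved the other way, with 64.7, 58.5 and 66.1 CPM in September and 102, 101 and 102 CPM in August, and fell by 0.69 (SE 0.0659, adjusted p = 1.02e-05). A SEC23 unigene that is no member (Unigene0059789) drew more reads, at 199 ± 6.62 CPM in September and 195 ± 3.60 CPM in August (SD, n = 3 each). It did not pass, at 0.03, and a further one (Unigene0021007) was lower at -0.38. Summed, SEC23 was lower at -0.21 (adjusted p = 0.00424).

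SEC13B, the partner of SEC31 in the outer coat, was lower in both its unigenes. The more abundant (Unigene0072072) had 129.6, 118 and 129 CPM in September and 147, 151 and 141 CPM in August (log2 fold change -0.22, SE 0.0616, adjusted p = 0.00871), and the other (Unigene0072071) fell by 0.42. The SEC12 class, named for the protein that activates SAR1, was lower in PHF1 (Unigene0020478) by 0.43 and in STL2P (Unigene0014643) by 0.40. Whether either member activates SAR1 was not tested. In Arabidopsis, PHF1 is known for helping phosphate transporters leave the ER. A low SEC24 unigene, CEF (Unigene0072371), did not pass at -0.31 (SE 0.427).

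BAP31, a cargo receptor of the ER membrane, had 3 unigenes with no symbol that went different ways. The most abundant (Unigene0021402) had 95.1, 90.9 and 91.1 CPM in September and 146, 148 and 143 CPM in August, and fell by 0.66 (SE 0.0552, adjusted p = 4.45e-06). Unigene0040380 had 14.7, 16.8 and 17.1 CPM in September and 8.11, 8.9 and 9.91 CPM in August (log2 fold change 0.85, SE 0.135, adjusted p = 0.000298). The last (Unigene0012311) did not pass. With all unigenes of the KEGG number summed, the log2 fold change was -0.44 (adjusted p = 8.41e-05).

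In ER-associated degradation 17 of 20 members fell (85.0%), 2 rose and 1 did not pass, at a median log2 fold change of -0.45. Summed over its members, the level was 2051, 1944 and 1986 CPM in September and 2678, 2617 and 2670 CPM in August. Without any 1 library, 15 to 17 of the 20 were lower.

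CDC48 (Unigene0043592), the ATPase that pulls proteins out of the ER membrane, was the most abundant of them. It had 737, 727 and 735 CPM in September and 921, 849 and 928 CPM in August, and fell by 0.30 (SE 0.0551, adjusted p = 0.000864). Its cofactors UFD1 and NPL4, which bind the ubiquitin chains, were lower in all 3 unigenes each. The 3 of each share 1 best hit and may not be separate genes. Summed by best hit, UFD1 was at -0.42 (adjusted p = 0.000685) and NPL4 at -0.36 (adjusted p = 0.00338). The most abundant ufd1 unigene (Unigene0073084) had 85.3, 78 and 92.9 CPM in September and 121, 118 and 105 CPM in August (log2 fold change -0.43, SE 0.0815, adjusted p = 0.000945). The ufd1 unigene with the largest change (Unigene0073579), singled out after its value was seen, rests on few reads, with 0.477, 0.403 and 0.315 CPM in September and 3.43, 3.63 and 2.41 CPM in August (log2 fold change -2.95, SE 0.356, adjusted p = 5.02e-05). Calls of 2 NPL4 unigenes, At3g63000 (Unigene0055368 and Unigene0055367), were lost without single libraries, with adjusted p of 0.0532 to 0.0819.

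The enzymes that take ubiquitin off fell by more than 2-fold. OTU2 (Unigene0059493), of the OTU1 class of deubiquitinases that work with CDC48, had 36.1, 41.1 and 35.7 CPM in September and 88.3, 101 and 91.1 CPM in August, and fell by 1.31 (SE 0.0838, adjusted p = 7.44e-07). The ataxin-3 class member At3g54130 (Unigene0040419) had 44.5, 42.8 and 49 CPM in September and 103, 93.9 and 89.7 CPM in August, and fell by 1.08 (SE 0.0803, adjusted p = 1.98e-06). In both, every September library was below every August library.

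Shuttle proteins carry ubiquitinated substrates to the proteasome. DSK2B (Unigene0037344) had 244, 224 and 233 CPM in September and 331, 324 and 326 CPM in August, and fell by 0.49 (SE 0.054, adjusted p = 2.8e-05). RAD23B (Unigene0063888) fell by 0.51 (SE 0.0662, adjusted p = 8.3e-05). The call of RAD23C (Unigene0063885), at -0.15 (adjusted p = 0.0472), ended when August library 2 or September library 2 or 3 was left out. Among the UBX proteins that link CDC48 to its substrates, PUX11 (Unigene0053650) fell by 0.89 and PUX4 (Unigene0025530) by 0.40. With all unigenes of its KEGG number summed, PUX11 had a log2 fold change of -0.47.

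Recognition of the misfolded protein inside the ER was split. The lectin OS9 (Unigene0043549) had 62.8, 55.3 and 56.2 CPM in September and 95.7, 101 and 107 CPM in August, and fell by 0.81 (SE 0.0746, adjusted p = 8.42e-06). HRD3 (Unigene0022674), which presents substrates to the HRD1 ligase, had 40.4, 41.7 and 31.3 CPM in September and 24.3, 28.3 and 28.7 CPM in August (log2 fold change 0.48, SE 0.122, adjusted p = 0.00534), with no overlap between months. The cytosolic deglycosylase PNG1 (Unigene0024741) had 14.2, 14.4 and 16.6 CPM in September and 13, 9.71 and 8.83 CPM in August (log2 fold change 0.52, SE 0.164, adjusted p = 0.0178). Leaving out August library 2, August library 3 or September library 3 ended the call (adjusted p 0.0651 to 0.0773).

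Of the membrane ubiquitin ligases, the DOA10 class was mixed and the RNF5/RNF185 class was lower in sum. The SUD1 member (Unigene0033172), of the DOA10 class, was lower at -0.23 (SE 0.0704, adjusted p = 0.0139), and without September library 3 its adjusted p was 0.0742. Of the SUD1 unigenes that are no members, Unigene0015569 was higher at 1.01 (adjusted p = 3.1e-05) and Unigene0061560 lower at -0.55 (adjusted p = 3.78e-05). The sum over the KEGG number was at -0.03 (adjusted p = 0.738). RNF185 was lower in Unigene0027881, by 0.69, and did not pass in Unigene0015067, at 0.25. Of the unigenes with its KEGG number that are no members, Rnf5 (Unigene0066532) was lower at -0.99 and RMA1H1 (Unigene0054383) at -0.77. A further RNF185 unigene (Unigene0074840) did not pass, at -0.15. All unigenes of the number summed to -0.82 (adjusted p = 9.95e-07).

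**Figure D4:**
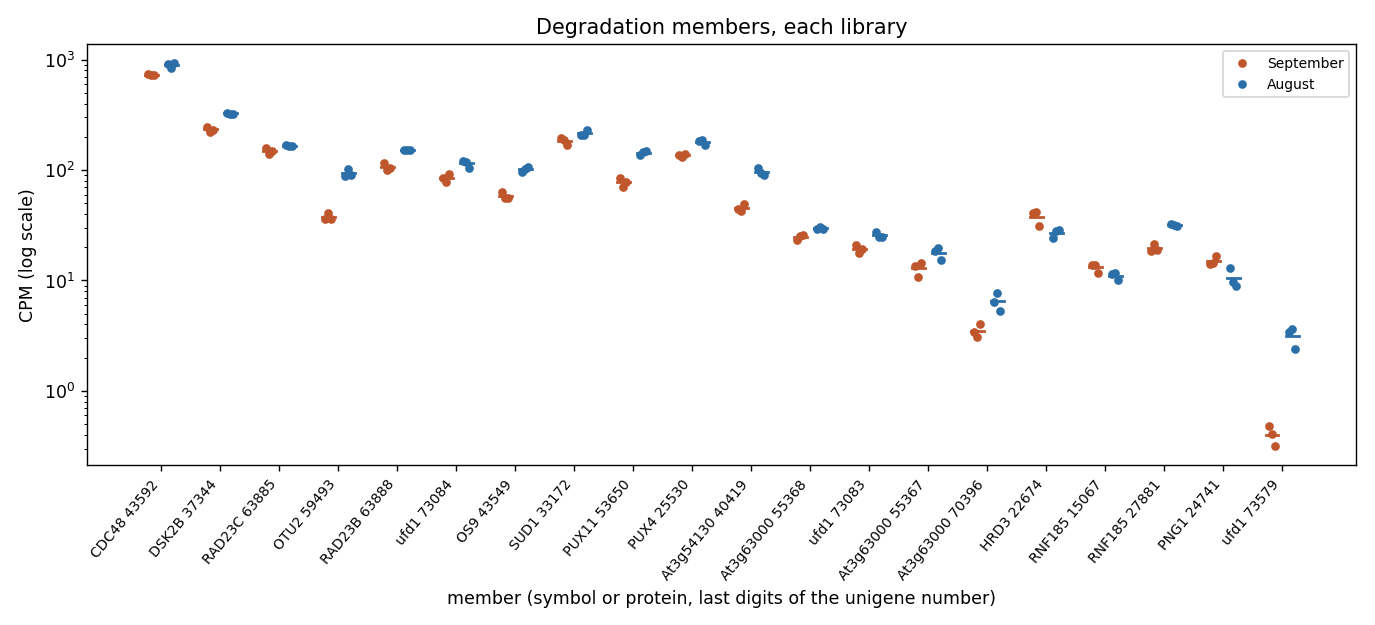
CPM on a log scale of the 20 tested degradation members, ordered by mean FPKM, with each library as a point and the mean of a month as a line. CDC48, OTU2, OS9 and PUX11 are lower in all September libraries, and HRD3 and PNG1 are higher in all of them.

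The proteases that release membrane-bound transcription factors in the Golgi were both lower. S2P (Unigene0025545) had 26.1, 23.9 and 27 CPM in September and 40.4, 40.2 and 39.1 CPM in August, and fell by 0.64 (SE 0.0831, adjusted p = 8.44e-05). SBT6.1 (Unigene0064211), the site-1 protease, had 66.1, 69.7 and 69.2 CPM in September and 72.2, 77.3 and 85.1 CPM in August (log2 fold change -0.19, SE 0.0744, adjusted p = 0.0395). Leaving out August library 3 or any 1 September library ended the call (adjusted p 0.0672 to 0.124).

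The export pathway also holds proteins of plastids and mitochondria, and 5 of these 6 members fell, 0 rose and 1 did not pass, at a median log2 fold change of -0.50. The share lower was 83.3%, where 32.5% of all tested unigenes were lower and 35.4% higher. PLSP1 (Unigene0015822), a plastid signal peptidase, had 329, 316 and 315 CPM in September and 501, 489 and 536 CPM in August, and fell by 0.67 (SE 0.056, adjusted p = 4.32e-06). TATC (Unigene0058014), the thylakoid receptor that carries folded proteins across the membrane, had 8.65, 7.14 and 6.7 CPM in September and 15.6, 17.1 and 20.1 CPM in August, and fell by 1.23 (SE 0.154, adjusted p = 6.54e-05). Its partner TATA (Unigene0070393) was lower at -0.28 (SE 0.0981, adjusted p = 0.0282), which did not hold when August library 2 or September library 2 or 3 was left out (adjusted p 0.0599 to 0.0975).

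The other 3 differed among themselves. The insertase PPF-1 (Unigene0006907) had 70.6, 61.5 and 67.9 CPM in September and 83.6, 78.5 and 89.9 CPM in August (log2 fold change -0.34, SE 0.0776, adjusted p = 0.0033). The ALB3 unigene of the same KEGG number, no member (Unigene0006908), was higher at 0.22 (adjusted p = 0.0107), and the sum over the number was at -0.02 (adjusted p = 0.788). The mitochondrial peptidase immp2l (Unigene0055878) fell by 0.83 (SE 0.123, adjusted p = 0.000195). A second PLSP1 unigene (Unigene0002954) did not pass, at 0.31.

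The symbol rule left 10 chaperones and co-chaperones among the members, of which 8 were tested: 4 rose, 2 fell and 2 did not pass, at a median log2 fold change of 0.61. Without all 10, 13 of 80 tested members were higher and 44 lower, with a median of -0.27. ATJ49 (Unigene0009947), a J protein that drives HSP70 and the most abundant of these, had 281, 269.6 and 266 CPM in September and 357, 356 and 334 CPM in August, and fell by 0.36 (SE 0.0546, adjusted p = 0.00023). A small heat shock protein of the HSP20 class with no symbol (Unigene0023888), which binds unfolding proteins, had 101, 103 and 105 CPM in September and 36.3, 43.2 and 31.5 CPM in August (log2 fold change 1.48, SE 0.102, adjusted p = 1.22e-06). ERDJ3B (Unigene0042608), an ER J protein, had 14.4, 20.2 and 14.8 CPM in September and 4.68, 6.97 and 6.16 CPM in August (log2 fold change 1.48, SE 0.194, adjusted p = 8.75e-05).

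The remaining chaperones and co-chaperones were low or changed little. A second small heat shock protein (Unigene0016790, SE 0.467) and a second ATJ49 unigene (Unigene0001115, SE 0.304) were higher at log2 fold changes of 1.69 and 1.03, both under 5 CPM in every library. With no filter on low counts the call of the ATJ49 unigene was lost (adjusted p = 0.0536). FES1, which helps HSP70 release its nucleotide, was lower in Unigene0039671 at -0.30 (adjusted p = 0.0136, and 0.0572 without September library 3) and did not pass as fes1 (Unigene0036062) at 0.18, and their KEGG number summed to -0.11 (adjusted p = 0.135). P58B (Unigene0037443), an ER J protein, did not pass at -0.02. Of the 4 members too low to test, 2 are HSP70 unigenes, dnaK (Unigene0049349) and SSA2 (Unigene0062219), and SSA2 had no count in any August library and 3 counts in 1 September library.

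Several of these proteins were spread over more than 1 unigene. Of the 60 KEGG numbers that the members carry, 24 hold 2 or more members, and in 5 of them members were called in both directions. Among the 5, the SEC61 alpha case rests on SCY1 against a sec61a call that was lost without any 1 September library. The ATJ49 case rests on a unigene under 5 CPM in every library, whose call was lost with no filter on low counts. Summed by KEGG number over the whole table, 13 of the 60 were higher, 32 lower and 15 did not pass, where 35.2% of all summed features were higher and 32.5% lower. In 40 of the 60, the sum takes in unigenes that are no members, among them chaperones left out by symbol. SEC61 beta summed to a log2 fold change of 0.56 (adjusted p = 6.95e-05), calnexin to 0.76 (adjusted p = 1.87e-05) and ERO1 to -1.04 (adjusted p = 8.86e-07). SEC61 alpha summed to -0.07 (adjusted p = 0.219) and ERDJ3B's number, K09517, to -0.12 (adjusted p = 0.425), the reverse of the member's sign. Whether unigenes with 1 number are separate genes, alleles or pieces of 1 transcript cannot be told apart, and RSEM can share the reads of similar copies among them.

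**Figure D5:**
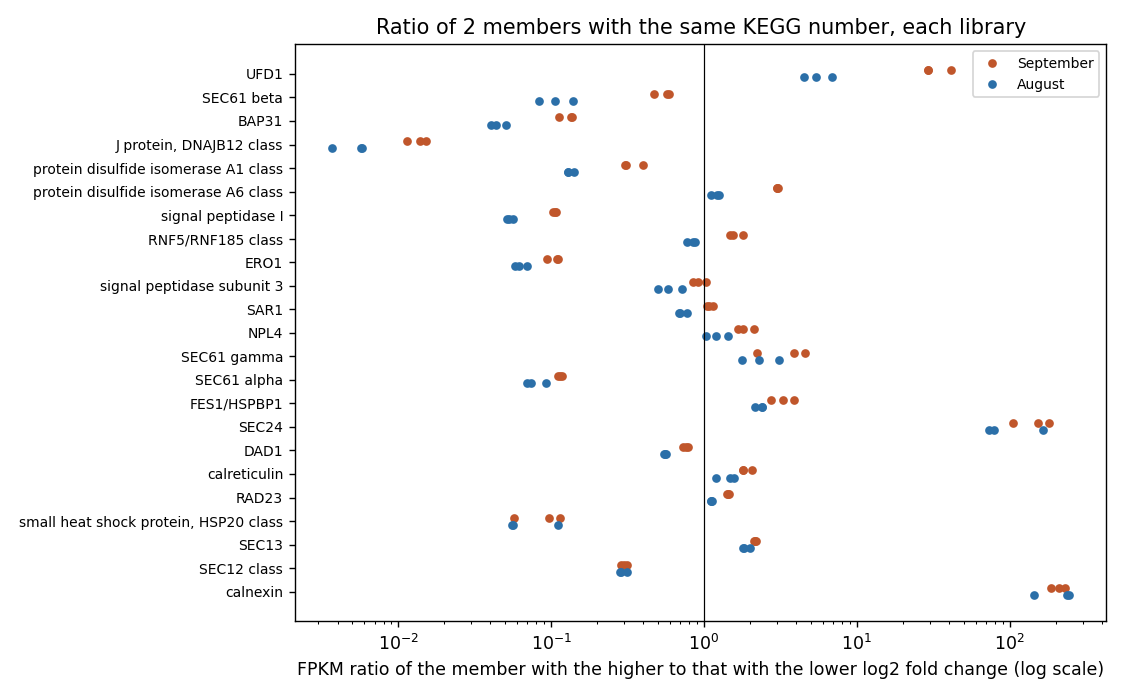
FPKM ratio, in each library, of the member with the higher to the member with the lower log2 fold change, for 23 KEGG numbers with 2 or more tested members, on a log scale. The choice of which member is on top sets the direction, which is not to be read. Where more than 2 members were tested, those farthest apart were taken, which also favours a large size. With 2 tested members each, SEC61 beta averaged 0.543 in September and 0.110 in August, and DAD1 0.756 in September and 0.554 in August.

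The other 340 unigenes of both pathways were divided in their calls: of 150 tested, 70 rose and 49 fell, at a median log2 fold change of 0.17. Those with a chaperone symbol were mostly higher, 52 of 73 tested with 10 lower and a median of 1.27. Those also in ubiquitin-mediated proteolysis had 6 of 25 higher and 15 lower (median -0.33), and those with a best hit outside the 3 conifer genera had 12 of 52 higher and 24 lower (median -0.13). The differences between these sets and the members were not tested. Over all tested unigenes 35.4% were higher and 32.5% lower.

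Unigenes with the KEGG numbers of proteins that work directly with the members lie among them. Of these, 26 with a mean of 30 CPM or more were looked at after their values were seen. The luminal HSP70 BiP, BIP4 (Unigene0016360), had 1514, 1756 and 1494 CPM in September and 329.6, 357 and 364 CPM in August (log2 fold change 2.18, SE 0.0769, adjusted p = 2.71e-08), and a second BIP4 unigene (Unigene0049085) was higher at 1.41. Among these 26, 3 have the KEGG number of GRP94, the luminal HSP90. The one with the most reads (HSP90, Unigene0028644) had 1815, 1963 and 1652 CPM in September and 639, 580.4 and 790.3 CPM in August (log2 fold change 1.43, SE 0.11, adjusted p = 2.32e-06). The others were HSP90-5 (Unigene0003413), higher at 0.76 (adjusted p = 3.07e-06), and HSP90-6 (Unigene0022007), which did not pass at 0.06 (adjusted p = 0.42). The KEGG number alone does not place any of the 3 in the ER lumen. UGGT (Unigene0075151), which returns unfolded glycoproteins to calnexin, was higher at 0.22 (SE 0.0655, adjusted p = 0.0132).

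Also higher were HSP70-17 (Unigene0037668), of the HYOU1 class of HSP70, at 1.12 (SE 0.0928, adjusted p = 4.03e-06), and the SEC11 unigene Sec11a (Unigene0009029) at 0.72 (adjusted p = 0.000191). The SUD1 and ALB3 unigenes given above as higher are among the 26 too. The partners named next were lower or did not pass. The ligase HRD1A (Unigene0029278), the partner of HRD3, was lower at -0.35 (SE 0.0658, adjusted p = 0.000948). The stress sensor IRE1A (Unigene0074157) was also at -0.35 (SE 0.0771, adjusted p = 0.0024). The channel J protein ERDJ2A (Unigene0040555), known to work beside SEC62, was lower at -0.51 (SE 0.0552, adjusted p = 2.37e-05). Both derlins, DER2.1 (Unigene0071259) and DER1.2 (Unigene0072816), did not pass, at -0.09 and -0.07.

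Unigene length, computed from count and FPKM, ran from 226 to 5541 bases with a median of 1828.5 over the members. There were 4 members longer than 5000 bases, a SEC61 gamma unigene (Unigene0073070), PDI (Unigene0018990), PLSP1 (Unigene0015822) and a FES1 co-chaperone (Unigene0039671). What else such long unigenes hold was not tested.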

How the data were processed

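RNA was sequenced from seed kernels of 2 harvests with 3 libraries each. The submitters' processing notes name fastp and RSEM. Their versions, the assembler and the strand setting were not given in the sources used here. Per the file headers, the authors deposited expected counts of each unigene with no normalization and, beside them, FPKM. Rounding to whole numbers touched 8 of 390702 counts. Every sample column matched 1 library.

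Tests used edgeR 4.0.16 in R 4.3.3: filterByExpr by month (minimum count 10, minimum total 15), TMM size factors, glmQLFTest, and adjustment by Benjamini-Hochberg over 23216 unigenes at 0.05. Standard errors were derived from F. DESeq2 1.42.0 was an alternative. The fit was tested on simulated counts. FPKM values were used for levels only.

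The members and lists were chosen with earlier results of these data known. Symbol patterns left 39 of the 92 members without a role, so roles follow KEGG numbers, a grouping made after the files were seen. Named members are, per role under both groupings, the 2 of highest mean FPKM and the largest passing rise and fall, and the 5 largest rises and falls over all, at a mean of 5 CPM or more; other members were named after their values were seen. Best hits of 88 members carry no informative name. No sequence was used.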

Additional observations from a re-analysis of the deposited data

How the results depend on the processing

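With unigenes kept apart, 16 to 19 members were higher and 40 to 47 lower (RLE factors, total counts, DESeq2, no filter, a mean of 1 CPM in either month, a replicate block, each library left out), and leaving out libraries alone gave the same ranges. Best hits summed gave 20 higher and 37 lower of 80 sums, and KEGG numbers summed, chosen after seeing the data, 13 and 32 of 60; both can take in unigenes that are no members. Of 63 called members, 51 (14 higher, 37 lower) had the same call in all 12 settings that keep unigenes apart. For the rest of the pathway, 7 were higher and 17 lower of 33 with KEGG numbers summed, where fewer features are tested, and 96 were lower of 340 with no filter, where 15.9% of all unigenes were higher and 14.6% lower (35.4% and 32.5% with the filter); leaving out single libraries gave 63 to 70 higher and 49 to 61 lower, where 32.2% to 34.3% of all tested unigenes were higher and 29.2% to 30.8% lower. Summing reversed 3 named members: Unigene0040380 to -0.44 by KEGG number and -0.48 by best hit, ERDJ3B (Unigene0042608) to -0.12 and SCY1 (Unigene0053866) to -0.070, since the sums take in other unigenes. Named calls were lost in 18 further cases, in 5 members: PPF-1, GCS1, PNG1, sec61a (Unigene0039174) and SBT6.1. The replicate block gave 17 members higher and 45 lower, and 70 and 50 in the rest of the pathway; libraries with the same number correlated at 0.101, 0.0239 and 0.0530, so the numbers were not taken to pair them. Members under about 5 CPM rest on few reads.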
